A study of Homo sapiens with 6 samples.

Results

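The zinc finger genes of chromosome 19 were taken as the genes named ZNF and a number, with or without a closing letter, that the deposited count table places on chromosome 19 alone and that held 60 or more counts over the 6 libraries together. This gave 240 genes of the 257 with such a name on chromosome 19, out of 57341 named genes in the table and 554 with such a name on any chromosome. The members were thus chosen by their name, their chromosome and their total count over both groups, and the totals are a description only. Just inside the limit were ZNF564, with 70 counts, and ZNF20, with 81, and just outside it ZNF491, with 46, and ZNF208, with 43. All 240 passed the filter on low counts, and 8 of them carry a P at the end of their name, which marks a pseudogene.

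RNA was sequenced from H295R, an established line of human adrenocortical carcinoma cells, and from H295R-PM-Ptc+, a subpopulation of that line. H295R-PM-Ptc+ cells were sorted for Ptch1, the receptor of Hedgehog ligands, at the plasma membrane and were then amplified in culture. Both groups were grown in the same medium without any treatment, and each gave 3 libraries. The sources do not say whether the 3 replicates came from separate cultures, so the p-values measure the spread between these libraries, which may be technical. H295R-PM-Ptc+ is a single sorted population, so the sort, the time in culture and the selected cells cannot be told apart. In bulk RNA, fewer cells that express a gene and less RNA per cell cannot be told apart either.

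Libraries held between 23264403 and 25813247 counted fragments, of which the members took 0.389 to 0.442%. PTCH1, the gene of the sorting marker, held 441, 559 and 579 counts in 3 libraries labelled H295R and 248, 326 and 319 in those labelled H295R-PM-Ptc+. It was therefore lower in libraries labelled for it, with a log2 fold change of -0.81 (SE 0.147, adjusted p = 0.0207 by edgeR's quasi-likelihood test). The adjusted p rose to 0.0799 and 0.0921 when H295R replicate 2 or replicate 3 was left out, and to 0.0618 when replicate 2 of H295R-PM-Ptc+ was. In the study's own table of normalized values, 6 of 6 columns match the deposited column that carries the other group's name. The names are kept here as the deposited table gives them, and every direction depends on them. All 8 adrenocortical marker genes, such as NR5A1 and CYP17A1, were detected in every library at 70 to 13177 counts. Among them CYP21A2 held 365, 281 and 300 counts in libraries labelled H295R and 640, 579 and 514 in those labelled H295R-PM-Ptc+, and STAR held 9070, 6318 and 6579 against 13177, 8174 and 8007. Of 8 markers of blood, endothelial, fibroblast and epithelial cells, 6 held at most 3 counts in every library, DCN held 0 to 5, and EPCAM held 42, 39 and 48 counts in libraries labelled H295R and 103, 73 and 68 in those labelled H295R-PM-Ptc+. The part of these marker differences in the results was not tested.

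Zinc finger proteins of this type bind DNA through tandem repeats of a short module in which a pair of cysteines and a pair of histidines hold a zinc ion. Most of those on chromosome 19 also carry a KRAB domain, which recruits the corepressor TRIM28 and, through it, the histone methyltransferase SETDB1 and heterochromatin proteins. They are known mainly for silencing transposable elements, and the genes arose by repeated tandem duplication, which left them side by side in clusters. The members showed both features. In the GENCODE transcripts of the 229 members with a coding sequence, the median number of fingers was 13 (range 1 to 32), against 9 in 239 zinc finger genes of the same name pattern on other chromosomes. A KRAB box pattern was found in 190 of the 229 (83.0%), against 99 of those 239 (41.4%).

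The repeat itself is shown for 4 members that the results turn on, as the coding bases of the first finger that is followed by a linker, from the first cysteine to the last histidine. The 63 bases code for 21 residues, and the capitals mark the codons of the 4 zinc-binding residues.
ZNF135: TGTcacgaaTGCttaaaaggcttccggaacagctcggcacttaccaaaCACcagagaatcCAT
ZNF229: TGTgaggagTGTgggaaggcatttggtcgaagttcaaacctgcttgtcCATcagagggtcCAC
ZNF283: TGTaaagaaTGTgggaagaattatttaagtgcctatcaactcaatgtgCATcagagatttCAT
ZNF536: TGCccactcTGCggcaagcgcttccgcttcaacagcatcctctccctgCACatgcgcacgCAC

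The zinc-binding frame was set by the search that picked these stretches, and the bases between its codons differed. ZNF229 and ZNF283, which lie in the same cluster and both carry a KRAB box, had the most bases in common among these 4, at 36 of 63. ZNF135 had 31 of 63 in common with each of them. ZNF536, which has no KRAB box pattern and lies over 1 Mb from any other member, had 30 in common with ZNF135, 25 with ZNF229 and 23 with ZNF283.

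The similarity between neighbours bears on how well their reads can be told apart, since multiply mapped fragments were counted at 1 primary position. Of the 237 members found in GENCODE, 43 had more than 10% of their 75-base transcript windows in another gene, 82 had none, and the median was 0.714%. The most alike pairs were ZNF98 and ZNF492, ZNF324 and ZNF446, ZNF417 and ZNF587, ZNF443 and ZNF799, and ZNF580 and ZNF581, with 29.2%, 26.3%, 22.9%, 20.6% and 16.7% of the windows of the smaller gene shared. Windows from alike copies were not set apart from windows of exons that neighbouring genes have in common. Counts of these 10 genes may therefore be uncertain as to which member of the pair they come from. Of the members of these pairs, ZNF98 and ZNF446 were called and are described further on. ZNF587 stood at 0.31 on the log2 scale (adjusted p = 0.0991, but 0.00184 with the replicate number as a block in the fit), and its partner ZNF417 at 0.17. The log2 fold changes were -0.30 for ZNF443, -0.070 for ZNF799, -0.0041 for ZNF580 and -0.10 for ZNF581, none of which passed either way. ZNF580 and ZNF581 also overlap on the same strand, and 107 of the 240 members overlap some other gene with at least 60 counts on either strand.

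The members were expressed at low to moderate levels in these cells. Their mean level ran from 0.475 to 198.6 CPM (counts scaled to one library size with TMM factors), with a median of 13.2, against 19.4 for the 16710 genes tested. Per kilobase of the gene's summed exons, the median was 2.63 CPM for the members and 4.25 for all genes tested. ZNF146 had the highest level on both scales, with 47.9 CPM per kilobase. It codes for a protein made almost only of fingers, without a KRAB box. ZNF146 held 4476, 5377 and 4930 counts in libraries labelled H295R and 4797, 5276 and 4475 in those labelled H295R-PM-Ptc+, and the groups overlapped.

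The next highest by CPM were ZNF507, ZNF83, ZNF302 and ZNF317, at 82.8, 66.7, 66.4 and 58.9 CPM over the 6 libraries. None of these 5 passed an adjusted p of 0.05. Their log2 fold changes were -0.013 for ZNF146, -0.15 for ZNF507, 0.22 for ZNF83, -0.016 for ZNF302 and 0.069 for ZNF317. With the replicate number as a block, ZNF83 and ZNF507 passed, with adjusted p-values of 0.00525 and 0.0271. In ZNF507 the same-numbered libraries differed by nearly the same amount in each pair, at -0.15, -0.15 and -0.15 on the log2 CPM scale.

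Between the groups, 7 members had higher counts in libraries labelled H295R-PM-Ptc+ and 3 had lower ones, at an adjusted p under 0.05 over the 16710 tested genes. By the same rule, 2.42% of all genes tested were higher and 1.32% lower, so that the members' shares of 2.92% and 1.25% lay near the background. At an unadjusted p under 0.05 the members numbered 57 higher (23.8%) and 7 lower (2.92%), against 9.60% and 7.67% of all genes tested. All 3 libraries labelled H295R-PM-Ptc+ lay above the other 3 in 67 members (27.9%) and wholly below them in 14 (5.83%), against 12.4% and 11.2% of all genes tested. With the replicate block, 65 members were higher (27.1%) and 8 lower (3.33%), against 12.1% and 10.4% of all genes. All 10 called members were among these 73, with adjusted p-values between 1.90e-07 and 0.00670. Over the 65 members that were higher with the block, 58 of which were not called without it, the log2 fold change ran from 0.16 to 0.93 with a median of 0.30.

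The differences were not spread evenly along the chromosome. In order of their starts, the members fall into 16 clusters with gaps of over 1 Mb between them, of which 8 hold at least 5 members and together 225 of the 240. Over all members the median log2 fold change was 0.14, and 157 of 240 were above 0, against a median of 0.00094 over all genes tested. The median of the members up to ZNF792, at 34956354, lay below 0, and that of the members from ZNF565, at 36182060, above it. This break between the 8th and the 9th cluster was set after the values were seen, so the 2 stretches are described and not tested against each other.

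Before the break, 26 of 84 members had a log2 fold change above 0, with a median of -0.078. In the 3 pairs of same-numbered libraries the median was -0.052, -0.098 and -0.071. By edgeR, 0 members of this stretch were called higher and 3 lower, and at an unadjusted p under 0.05 these were 1 and 6. DESeq2 called 0 higher and 2 lower, where 3.37% and 2.08% of all genes tested were, limma-voom called 0 and 3, with 2.36% and 1.28% of all genes, and the block fit 1 and 7. After the break, 131 of 156 members were above 0, with a median of 0.21. The medians of the 3 pairs were 0.21, 0.20 and 0.20. Here edgeR called 7 members higher and 0 lower, which are 56 and 1 at an unadjusted p under 0.05. DESeq2 called 9 and 1, limma-voom 7 and 0, and the block fit 64 and 1. In 106 of the 156 each of the 3 pairs was higher in the library labelled H295R-PM-Ptc+, and in 7 each pair was lower, against 26.9% and 25.7% of all genes tested.

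**Figure D1:**
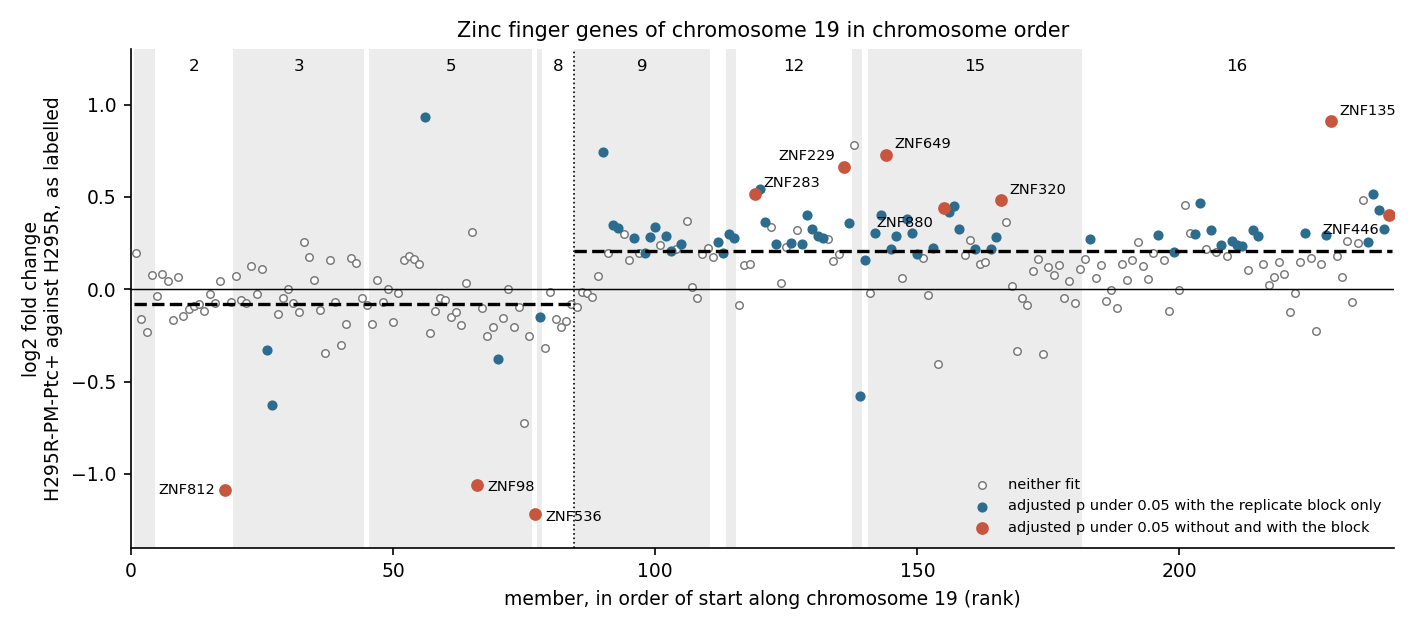
Log2 fold change (H295R-PM-Ptc+ against H295R, as labelled) of the 240 members by their rank along chromosome 19. Grey and white bands are clusters, numbered where they hold at least 5 members, and dashed lines are the medians of -0.078 and 0.21 on either side of the break (dotted). Filled points passed an adjusted p of 0.05, the larger red ones without and with the replicate block and the smaller blue ones with the block only. Most points left of the break sit just below 0 and most points right of it above 0.

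The summed level of the members was also taken in each library, over the stretches as set by the fold changes. The 84 members before the break summed to 1099, 1213 and 1153 CPM in libraries labelled H295R and to 1045, 1137 and 1089 CPM in those labelled H295R-PM-Ptc+. The groups overlapped, and each library labelled H295R-PM-Ptc+ lay below the H295R library of the same number. The 156 members after it summed to 2737, 2947 and 2816 CPM and to 3109, 3326 and 3175 CPM, with 3 libraries labelled H295R-PM-Ptc+ on top. The ratio of the second sum to the first needs no scaling between libraries. It was 2.49, 2.43 and 2.44 in libraries labelled H295R and 2.98, 2.93 and 2.92 in those labelled H295R-PM-Ptc+. As the break was placed by the same differences, this ratio restates them per library and adds no support to the break.

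**Figure D2:**
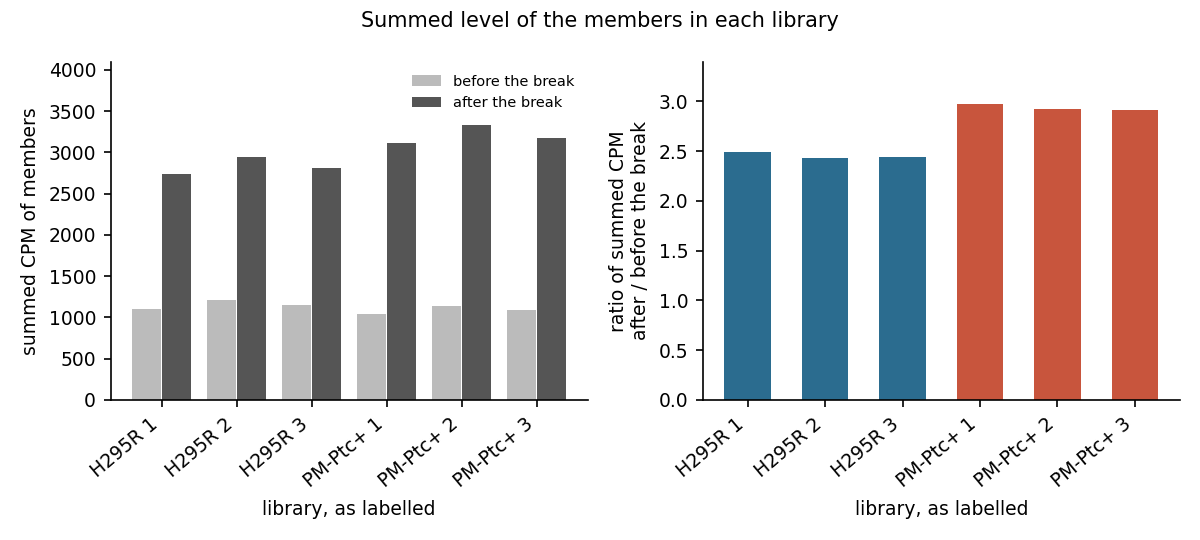
Summed CPM of the members before and after the break in each library (left) and the ratio of the sums (right), with H295R and PM-Ptc+ as labelled. The ratio is 2.43 to 2.49 in 3 libraries labelled H295R and 2.92 to 2.98 in the 3 labelled H295R-PM-Ptc+.

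Each of the 4 described clusters before the break had a median below 0. The cluster of 15 members from 7069444 to 9793180 had a median of -0.076, with 4 of its members above 0. In the 25 members from 11483427 to 12640098 the median was -0.047 and 10 were above 0, and in the 31 members from 19668796 to 24129961 it was -0.10 with 10 above 0. None of the 6 members from 34542462 to 34964049 was above 0, and their median was -0.16. In the clusters of 25 and 31 members, 1 pair of the 3 had a median above 0.

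After the break, the 26 members from 36182060 to 37817300 had a median of 0.21, with 21 above 0 and 10 higher with the block. The first 4 of them, from ZNF565 to ZNF260, had a median of -0.031 and none was above 0, while 21 of the other 22, from ZNF529 at 36534774 on, were. Of the 22 members from 43525497 to 44500524, 21 were above 0, at a median of 0.28, with 2 called and 12 higher with the block. The 41 members from 51571298 to 53580269 had a median of 0.17, with 32 above 0, 3 called and 17 higher with the block. The 59 members from 55476332 to 58481230 had a median of 0.18, with 50 above 0, 2 called and 20 higher with the block. In each of these 4 clusters all 3 pairs gave a median above 0. In this order, 38.5%, 54.5%, 41.5% and 33.9% of their members were higher with the block, against 12.1% of all genes. Called higher without it were 0%, 9.09%, 7.32% and 3.39%, against 2.42% of all genes. Tested chromosome 19 genes of other names after the break gave 37.5% with the block and 5.75% without it. The other 8 clusters hold 1 to 4 members each, 15 in all. All coordinates are those of the deposited table (hg38).

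**Figure D3:**
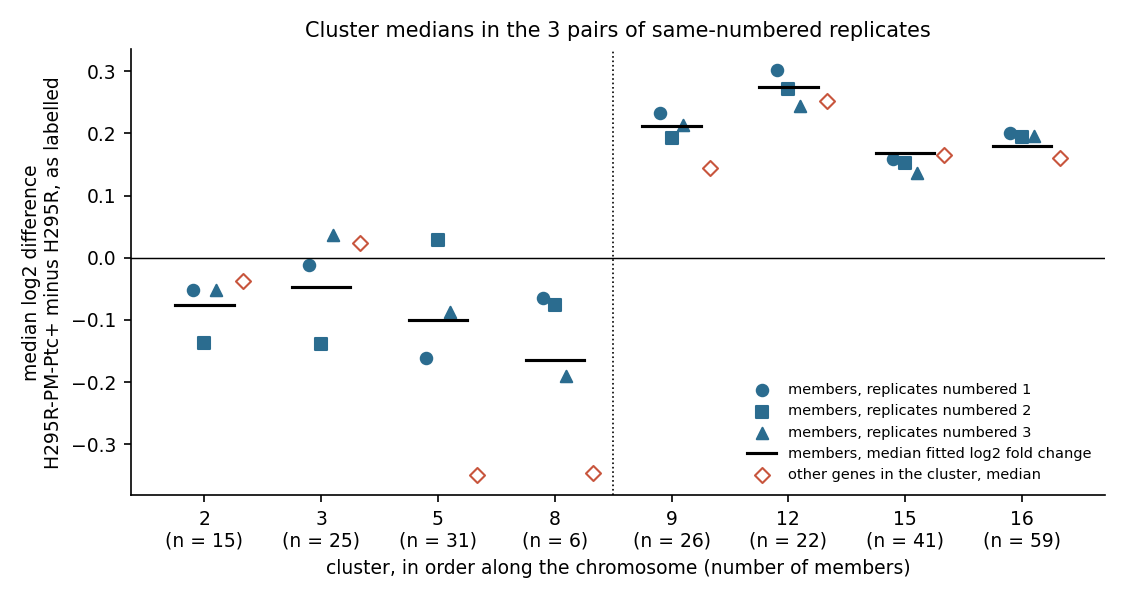
Median difference of the members of each cluster with at least 5 members (log2 CPM, H295R-PM-Ptc+ minus H295R as labelled) in the 3 pairs of same-numbered libraries, with the median fitted log2 fold change as a line and the median of the other genes in the cluster as a diamond. The 4 clusters right of the dotted break have all 3 pairs above 0, and the 4 left of it medians below 0.

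Within the clusters the members did not all differ alike. In the first described cluster, ZNF358 was highest, with 842, 546 and 684 counts in libraries labelled H295R and 869, 659 and 664 in those labelled H295R-PM-Ptc+ (log2 fold change 0.081), and ZNF812 was lowest. In the next, ZNF20 stood at 0.26 on 10 to 17 counts per library, and ZNF69 at -0.63 (SE 0.216, adjusted p = 0.170). ZNF69 held 83, 120 and 103 counts against 50, 84 and 62, its groups did not overlap in CPM, and it passed with the block (adjusted p = 0.00613). The cluster around ZNF98 also holds ZNF626, which went the other way at 17, 20 and 14 against 29, 38 and 30 counts. Its log2 fold change of 0.93 (SE 0.240, adjusted p = 0.0736) was the highest of all members and passed with the block (0.0153). It overlaps 3 other genes, 1 of them on its own strand. In the small cluster before the break, the range ran from ZNF807, at -0.32 on 8 to 24 counts per library, to ZNF302, at -0.016.

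After the break, ZNF382 and ZNF565 marked the ends of the first cluster. ZNF382, a KRAB protein described as a transcriptional repressor, held 60, 42 and 46 counts in libraries labelled H295R and 97, 85 and 66 in those labelled H295R-PM-Ptc+. Its log2 fold change was 0.74 (SE 0.203, adjusted p = 0.0868) and its groups did not overlap in CPM. It passed with the block (0.00460), in the fit without a count filter (0.0279) and with H295R replicate 1 left out (0.0301). ZNF565, whose gene spans that of ZNF146 on the other strand, stood at -0.094. The lowest members of the other 3 clusters were ZNF575, at -0.084 with 16 to 29 counts per library, ZNF610, at -0.40 with 44 to 90, and ZNF418, at -0.22 with 11 to 19. None of these 4 lowest members passed, with or without the block. The 1 member after the break that passed with the block in the lower direction, named after its value was seen, was ZNF114. It held 136, 188 and 169 counts against 112, 111 and 105, a log2 fold change of -0.58 (SE 0.176, adjusted p = 0.0578, and 0.00320 with the block). ZNF114 also passed by DESeq2 (0.0293), in the fit without a count filter (0.0262) and with H295R replicate 1 left out (0.0190).

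Of the 10 called members, 3 had fewer counts in libraries labelled H295R-PM-Ptc+, and ZNF536 had the largest difference of all members. ZNF536, known as a repressor in neuronal differentiation and expressed mainly in brain, lies alone from 30228290 to 30713538. It held 364, 482 and 499 counts in libraries labelled H295R and 199, 191 and 183 in those labelled H295R-PM-Ptc+, or 18.1 ± 2.58 and 7.79 ± 0.111 CPM (SD, n = 3 each). All 3 libraries of the first group lay above all 3 of the second, with a log2 fold change of -1.22 (SE 0.124, adjusted p = 0.00121). It stayed under 0.05 with each library left out in turn, at most 0.00956. The next member, ZNF507, over 1 Mb further on, stood at -0.15.

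ZNF812, from 9689924 to 9700817, held 43, 50 and 46 counts against 25, 21 and 19, or 1.88 ± 0.0855 and 0.881 ± 0.0848 CPM (SD, n = 3 each). The log2 fold change was -1.08 (SE 0.192, adjusted p = 0.0182). ZNF98, from 22391019 to 22532485, held 30, 38 and 35 counts against 18, 17 and 14, or 1.39 ± 0.122 and 0.664 ± 0.0525 CPM (SD, n = 3 each). ZNF98 had a log2 fold change of -1.06 (SE 0.216, adjusted p = 0.0335), and DESeq2 gave an adjusted p of 0.0571. Both rest on low counts. Without H295R-PM-Ptc+ replicate 2 the adjusted p of ZNF812 was 0.0845, and without H295R-PM-Ptc+ replicate 3 that of ZNF98 was 0.137. ZNF492, which shares the most sequence with ZNF98, held 64, 81 and 111 counts against 75, 86 and 76, and its groups overlapped.

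The 7 members called higher in libraries labelled H295R-PM-Ptc+ lie in 3 of the clusters after the break. In the cluster from 43525497, ZNF229 (44417519 to 44448578) held 418, 495 and 462 counts against 666, 776 and 718, or 18.6 ± 1.00 and 29.4 ± 2.92 CPM (SD, n = 3 each). It had a log2 fold change of 0.66 (SE 0.0975, adjusted p = 0.00751), and the adjusted p was 0.0516 without H295R replicate 3. ZNF283 (43827292 to 43852017) held 222, 294 and 256 counts against 363, 375 and 358, or 10.4 ± 1.14 and 14.9 ± 0.648 CPM (SD, n = 3 each). That was a log2 fold change of 0.52 (SE 0.110, adjusted p = 0.0379, and 0.157 without H295R-PM-Ptc+ replicate 3). In both genes, which code for KRAB proteins with 16 fingers, the groups did not overlap.

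In the cluster from 51571298, ZNF649 (51889224 to 51905040) held 103, 128 and 110 counts against 174, 192 and 194. The log2 fold change was 0.73 (SE 0.135, adjusted p = 0.0215), at 4.60 ± 0.387 and 7.64 ± 0.790 CPM (SD, n = 3 each). It overlaps ZNF577 on its own strand and ZNF613 on the other. ZNF880 (52369917 to 52385795) held 618, 691 and 593 counts against 863, 864 and 833, a log2 fold change of 0.44 (SE 0.0795, adjusted p = 0.0198). ZNF320 (52863790 to 52897693) held 443, 538 and 457 counts against 627, 754 and 615, a log2 fold change of 0.48 (SE 0.105, adjusted p = 0.0409). Each of the 3 codes for a KRAB protein and was higher in all 3 libraries labelled H295R-PM-Ptc+ than in any labelled H295R. The adjusted p was 0.109 for ZNF649 and 0.118 for ZNF880 without H295R-PM-Ptc+ replicate 3, and 0.171 for ZNF320 without H295R replicate 3.

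In the last cluster, ZNF135 (58059239 to 58086310) held 95, 90 and 88 counts against 168, 167 and 175, or 3.69 ± 0.245 and 6.95 ± 0.533 CPM (SD, n = 3 each). The log2 fold change of 0.91 (SE 0.130, adjusted p = 0.00645) was the largest among the members called higher, and the adjusted p was at most 0.0483 with each library left out in turn. ZNF135 overlaps ZSCAN18 at its end, on the other strand. ZNF446 (58474017 to 58481230) held 365, 339 and 363 counts against 499, 457 and 446, a log2 fold change of 0.40 (SE 0.0910, adjusted p = 0.0482). This call was lost under upper-quartile factors (0.0639), under scaling by total counts (0.0569) and over genes with 10 or more counts in each library (0.0552), and without H295R-PM-Ptc+ replicate 3 the adjusted p was 0.185. ZNF324, next to it and with transcript windows in common, stood at 0.33 (SE 0.0903, adjusted p = 0.0883, and 0.00693 with the block).

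Of the 10 called members, ZNF536 and ZNF135 kept an adjusted p under 0.05 in each of the 6 fits that left out 1 library. Without H295R replicate 1, ZNF320 alone was lost, at 0.0539, and without H295R-PM-Ptc+ replicate 1 the calls of ZNF98, ZNF283 and ZNF446 were lost, at 0.0643 to 0.119. Without H295R replicate 2, 6 calls were lost, at 0.0504 to 0.148, and ZNF536, ZNF229, ZNF880 and ZNF135 were kept. Without H295R replicate 3, 8 were lost, at 0.0516 to 0.171. With either replicate 2 or replicate 3 of H295R-PM-Ptc+ left out, the same 7 were lost, at 0.0839 to 0.155 and 0.0841 to 0.185, and ZNF229 was kept besides ZNF536 and ZNF135. Each of these fits has 2 libraries in a group.

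**Figure D4:**
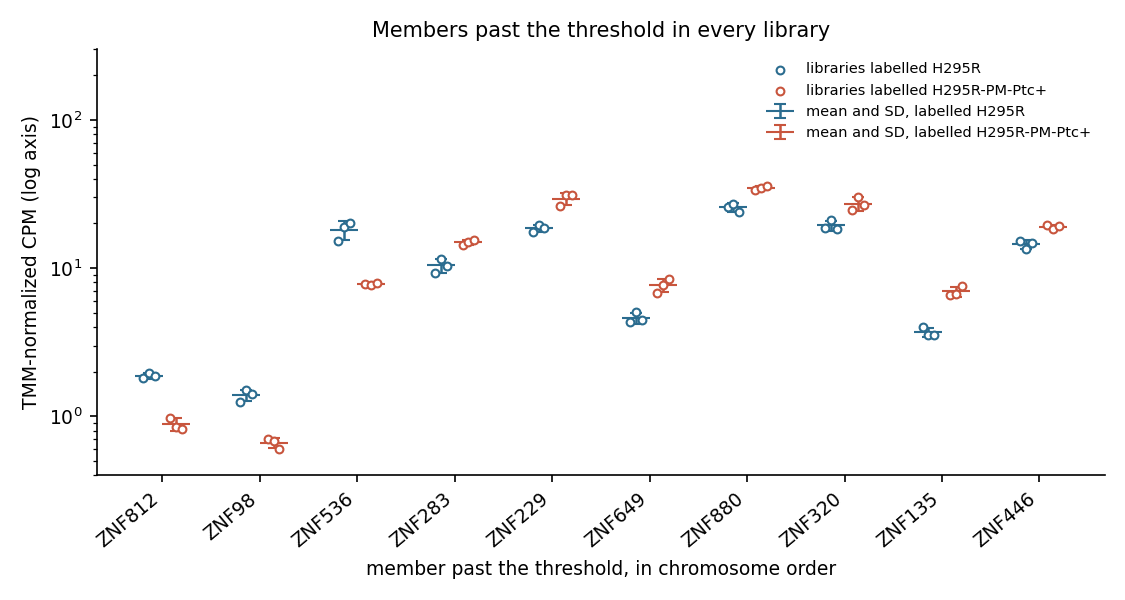
TMM-normalized CPM (log axis) of the 10 members with an adjusted p under 0.05 in each of the 6 libraries, with the mean and SD of the 3 libraries of each group as labelled. The groups do not overlap in any of the 10, with ZNF812, ZNF98 and ZNF536 lower and the other 7 higher in libraries labelled H295R-PM-Ptc+.

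The members were set beside 3 other lists to see where they differ. On other chromosomes, the 251 zinc finger genes of the same name pattern had a median log2 fold change of -0.019, with 108 above 0. Of these 251, edgeR called 3 higher (1.195%) and 2 lower (0.797%), against 2.42% and 1.32% of all genes tested. In the block fit 15 were higher (5.98%) and 21 lower (8.37%), against 12.1% and 10.4% of all genes tested. The genes among and between the members were counted apart. Of 903 tested genes of other names on chromosome 19, 503 lie before the break, with a median of 0.016 and 272 above 0. Of these 503, edgeR called 2 higher (0.398%) and 11 lower (2.19%). The 400 after it had a median of 0.19 with 325 above 0, and of the 400 edgeR called 23 higher (5.75%) and 1 lower (0.25%), against the 2.42% and 1.32% of all genes. In the block fit 150 of the 400 were higher (37.5%) and 2 lower (0.5%), where 41.0% and 0.641% of the members after the break were. Of the 503, 9.15% were higher and 10.1% lower in that fit, where 1.19% and 8.33% of the members before the break were. Relative to these neighbours, the median of the members was 0.017 higher after the break, where 87 of 156 members lay above the neighbours' median. Before the break it was 0.093 lower, where 23 of 84 did. The 36 tested genes between the 8th and the 9th cluster had a median of 0.0095, with 19 above 0.

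**Figure D5:**
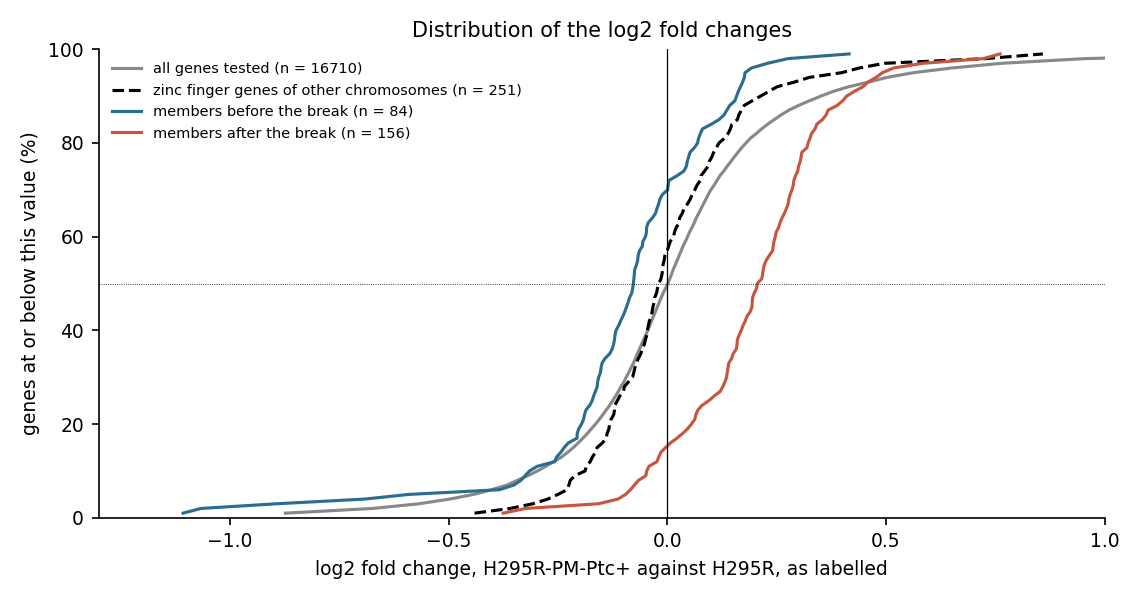
Cumulative distribution of the log2 fold change (H295R-PM-Ptc+ against H295R as labelled) for the members before and after the break, for zinc finger genes of other chromosomes and for all genes tested, from the 1st to the 99th percentile, on an axis from -1.3 to 1. The curve of the 156 members after the break crosses 50% at 0.21, that of the 84 before it at -0.078 and those of the other lists at -0.019 and 0.00094.

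Inside the clusters, the 64 genes of other names before the break had a median of -0.089 and the 93 after it a median of 0.16. Before it, their medians by described cluster, in order along the chromosome, were -0.038 over 34 genes, 0.024 over 10, -0.35 over 16 and -0.35 over 4. After it, they were 0.14 over 16 genes, 0.25 over 11, 0.17 over 12 and 0.16 over 43. Of 17 zinc finger genes of chromosome 19 under other names (ZFP, ZSCAN, ZIK1, PEG3 and others), 16 were found and 13 were tested, with ZFP112 not analysed here. Their median was 0.16 with 8 above 0. None passed an adjusted p of 0.05 by edgeR. At an unadjusted p under 0.05, 5 were higher (38.5%) and 0 lower, against 9.60% and 7.67% of all genes. The block fit gave 6 higher (46.2%) and 0 lower, against 12.1% and 10.4% of all genes. DESeq2 passed none of them either.

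The members were also split by features of the proteins and of the counting. After the break, 121 members with a KRAB box pattern had a median of 0.22 and 30 without one a median of 0.16. Before it, the medians were -0.076 for 69 members with the pattern and -0.090 for 9 without. The 87 members on the plus strand after the break had a median of 0.22 and the 69 on the minus strand 0.19. With the 10% limit on shared windows, the median was 0.20 over 134 members after the break and -0.080 over 63 before it. The 76 members after the break that overlap no other gene had a median of 0.19, and the 80 that do had 0.24. The 78 members after the break with the lower mean CPM had a median of 0.24, and the 78 with the higher mean CPM 0.19. None of these splits was tested.

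The partners through which KRAB zinc finger proteins silence chromatin were taken as a list of 24 genes, all of which were tested. Their median log2 fold change was -0.0014 with 11 above 0, and by edgeR 1 was called higher and 0 lower, as with DESeq2, with 1 and 1 at an unadjusted p under 0.05. A single gene is 4.17% of this list. Among all genes tested, edgeR called 2.42% higher and DESeq2 3.37%, and 9.60% and 7.67% passed unadjusted. The gene called higher was TRIM28, the corepressor that the KRAB domain binds, which itself lies on chromosome 19 (58544091 to 58550722), just beyond the last member. It held 6311, 7619 and 8030 counts in libraries labelled H295R and 10012, 10548 and 10112 in those labelled H295R-PM-Ptc+, or 296 ± 30.5 and 418 ± 23.3 CPM (SD, n = 3 each). The groups did not overlap, with a log2 fold change of 0.49 (SE 0.0943, adjusted p = 0.0249). Its adjusted p rose to 0.0885 and 0.0530 when H295R replicate 2 or replicate 3 was left out, and to 0.100 and 0.125 when replicate 2 or replicate 3 of H295R-PM-Ptc+ was.

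SETDB1, the methyltransferase that acts through TRIM28, lies on chromosome 1 and held 1521, 1935 and 1845 against 1708, 1839 and 1702 counts. Its groups overlapped and its log2 fold change was -0.0013 (SE 0.0904, adjusted p = 0.995). With the block, TRIM28 was higher (adjusted p = 7.37e-07) and 2 partners were lower. These were PPHLN1, a subunit of the HUSH silencing complex, at -0.21 (0.00393), and CBX1, a heterochromatin protein, at -0.12 (0.04997). As shares of the list, 4.17% were higher and 8.33% lower with the block, both under the 12.1% and 10.4% of all genes tested.

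Promoters from RefSeq (GRCh38.p14) were matched for 203 members, each as 250 bases before the start of the gene and 50 after it. They are shown for 3 called members, ZNF283 and ZNF135, which were higher, and ZNF536, which was lower. Each line gives the 250 bases before the start, 5′ to 3′ on the gene's strand, which is the plus strand in all 3. The RefSeq start of ZNF536 lies before the start of the gene in the deposited table. The capitals mark CCGGAAG on either strand, a motif bound by ETS factors.
ZNF283, chr19:43827071-43827320: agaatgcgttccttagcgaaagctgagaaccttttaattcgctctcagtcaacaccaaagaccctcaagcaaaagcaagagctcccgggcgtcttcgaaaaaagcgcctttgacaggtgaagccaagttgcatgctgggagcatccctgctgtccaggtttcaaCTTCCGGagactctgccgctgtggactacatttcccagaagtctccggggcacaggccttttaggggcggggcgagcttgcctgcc
ZNF135, chr19:58058989-58059238: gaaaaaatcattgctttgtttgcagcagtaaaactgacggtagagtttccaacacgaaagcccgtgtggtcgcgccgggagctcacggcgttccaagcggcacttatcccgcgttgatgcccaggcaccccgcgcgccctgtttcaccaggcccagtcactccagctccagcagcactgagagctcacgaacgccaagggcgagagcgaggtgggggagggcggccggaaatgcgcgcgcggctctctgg
ZNF536, chr19:30225342-30225591: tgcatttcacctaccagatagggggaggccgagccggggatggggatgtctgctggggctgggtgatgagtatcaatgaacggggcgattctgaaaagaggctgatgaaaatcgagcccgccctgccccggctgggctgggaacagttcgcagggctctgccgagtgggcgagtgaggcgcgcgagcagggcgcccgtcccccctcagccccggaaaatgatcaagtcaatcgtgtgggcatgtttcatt

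The motif occurs once in the ZNF283 window, and those letters are not in the other 2 windows. The 250 bases of ZNF135 hold 24 CG dinucleotides, those of ZNF536 hold 17 and those of ZNF283 hold 12. Over the 300 bases, CCGGAAG on either strand was present in 44.3% of the members' promoters, in 36.2% of those of zinc finger genes on other chromosomes, in 18.2% of those of tested genes and in 10.7% of 27305 promoters in all. The median number of CG dinucleotides in 300 bases was 21 for the members, 24 for zinc finger genes on other chromosomes, 26 for tested genes and 14 for all promoters. The motif was present in 49.6% of 133 promoters after the break and in 34.3% of 70 before it. After the break, members with the motif had a median log2 fold change of 0.22 and those without it also 0.22.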

How the data were processed

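The authors mapped paired reads of stranded libraries to hg38 with STAR 2.4.0a and assigned the fragments to gene names of an Ensembl annotation with featureCounts, taking multiply mapped reads at their primary position. The methods and the processing notes differ on the kit and the Subread version, and the strand setting used was not settled. The authors deposited raw counts. A row without a gene name held 0% of the counts. All columns of per-sample values were used (0 left out).

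Counts were tested with the quasi-likelihood F-test of edgeR 4.0.16 under R 4.3.3, two-sided, after filterByExpr and TMM, with group alone in the model and Benjamini-Hochberg adjustment over 16710 genes. Standard errors come from the same fit. DESeq2 1.42.0, limma-voom (limma 3.58.1), other scalings and filters, the replicate block, and each library left out were alternatives. Scripts were tested on simulated data with known changes. Summaries used Python 3.11.15 with pandas 2.3.3, and figures matplotlib 3.10.9. The chi-square per gene between replicates of a group was 5.97 to 28.3, above counting error. Same-numbered replicates pair the groups: deviations from group means correlated at 0.497, 0.307 and 0.228, against -0.352 to 0.150 for different numbers. In the deposited column names, same-numbered libraries of the 2 groups also carry the same code, which the labels do not explain. The study's text states no pairing, so the fit without the block was kept as the main one and the block is an alternative. Counts of calls depend on this choice.

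Members, lists and the naming rule were chosen with earlier results of these data known. The rule names called members, the 5 of highest CPM, the highest and lowest of each cluster with at least 5 members, those around the limit of 60 counts, the 5 most alike pairs, TRIM28, SETDB1, PTCH1 and called members of the other lists. The pairs were to be ranked by protein and were ranked here by shared 75-base windows of GENCODE 44 transcripts. Fingers were counted by the spacing of cysteines and histidines, with 2 to 4 residues between the cysteines, 12 up to the first histidine and 3 to 5 between the histidines.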

Additional observations from a re-analysis of the deposited data

How the results depend on the processing

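With the replicate block, 65 members were called higher and 8 lower, and SETDB1 stood at 0.0012. In that fit 2 corepressor genes were called lower (8.33% of the list, against 10.4% of all genes). Among the 39 named genes refitted, the block changed the calls of ZNF69, ZNF83, ZNF114, ZNF324, ZNF382, ZNF507, ZNF587, ZNF626, PPHLN1 and CBX1 and no other. Limma-voom gave a median of 0.21 after the break, 0.18 in the cluster of 41 members and 0.0014 for SETDB1. Scaling by total counts gave medians of 0.15 for the members, 0.22 after the break, 0.18 and 0.19 in the clusters of 41 and 59 members and -0.0045 for zinc finger genes of other chromosomes, with SETDB1 at 0.014, ZNF146 at 0.0020 and ZNF580 at 0.011. With at least 10 counts in every library, zinc finger genes of chromosome 19 under other names had a median of 0.12 and SETDB1 stood at 0.00060. Without a filter on low counts, 10 members were called higher and 4 lower, against 2.25% and 1.33% of all genes. Among the 210 members with at least 300 counts, 7 were called higher and 1 lower, against 2.29% and 1.38% of all genes with such totals. A gap of 0.5 Mb gave a median of 0.24 for the largest part of the last cluster, and with a gap of 2 Mb the cluster of 6 members merged with members beyond the break, at 0.19.

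Without 1 library at a time, 1 to 7 members were called higher and 1 to 4 lower, the fewest, 1 and 1, without H295R replicate 3, where 0.943 to 3.10% of all genes were called higher and 0.334 to 1.65% lower over the 6 fits. Members whose groups did not overlap numbered 72 to 94 of 240 higher and 16 to 31 lower, where 15.5 to 20.1% and 13.7 to 19.7% of all genes did not overlap at that size. Medians ranged from 0.10 to 0.14 for the members, -0.11 to -0.048 before the break and 0.18 to 0.23 after it. Cluster medians ranged from -0.11 to -0.033 (15 members), -0.11 to -0.022 (25), -0.15 to -0.041 (31), -0.20 to -0.082 (6), 0.17 to 0.28 (26), 0.24 to 0.31 (22), 0.14 to 0.20 (41) and 0.15 to 0.20 (59). Medians ranged from -0.045 to 0.0028 for zinc finger genes of other chromosomes, 0.024 to 0.070 for other genes in clusters, 0.016 to 0.15 for those outside and 0.091 to 0.20 for zinc finger genes under other names. Between 0 and 1 corepressor genes were called higher, and PTCH1 ranged from -0.91 to -0.67. These log2 fold changes changed sign: ZNF146 (-0.067 to 0.031), ZNF302 (-0.061 to 0.038), ZNF358 (-0.081 to 0.27), ZNF575 (-0.32 to 0.15), SETDB1 (-0.080 to 0.046), ZNF492 (-0.25 to 0.12), ZNF580 (-0.090 to 0.076), ZNF581 (-0.21 to 0.0020) and ZNF799 (-0.16 to 0.075). Overlap of the groups needs no model, so the models, filters and block give no value for it. The stretches on either side of the break were added after the data were seen. ZNF812 and ZNF98 rest on the fewest counts among the called members, 14 to 50 per library. The cause of these shifts was not tested.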

Other observations

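The 17 genes of the name pattern on chromosome 19 with under 60 counts in all held 0 to 46 counts over the 6 libraries, and 3 of them, ZNF861P, ZNF725P and ZNF177, held 0. A further 4 genes, ZNF85, ZNF430, ZNF100 and ZNF676, are placed by the deposited table on chromosome 19 and on alternate contigs and are not among the members. ZNF430 held 264, 252 and 265 counts in libraries labelled H295R and 320, 316 and 283 in those labelled H295R-PM-Ptc+ (log2 fold change 0.24, SE 0.0962, adjusted p = 0.238 by edgeR). ZNF676 held 38, 42 and 41 against 63, 64 and 50 counts (log2 fold change 0.55, SE 0.167, adjusted p = 0.116, and 0.0401 with the replicate block). ZNF85 and ZNF100 stood at 0.31 and -0.12, and their groups overlapped. By these coordinates the 4 lie within the cluster of 31 members that holds ZNF98.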
